A study of Mus musculus with 394 samples.

Results

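The comparison described here set total RNA of the substantia nigra pars reticulata (SNr) against total RNA of the substantia nigra pars compacta (SNc), in the full-length RNA-seq libraries that were made from tissue lysate before immunoprecipitation (Input). The members were the 3 SNr Input and the 3 SNc Input libraries of that table, 6 of the 394 samples of the series, and each was matched to its region, fraction and genotype through its label. All 6 came from Cre+ mice that carried 1 DAT-IRES-Cre allele and 1 RiboTag allele and were 10 to 14 months old. In these mice Cre is driven from the dopamine transporter locus, so that the ribosomal protein eL22 carries an HA tag in dopamine neurons, whereas an Input holds the RNA of all cells of the dissected piece. The SNr was cut away first, by a semilunar cut placed halfway between the cerebral peduncle and the SNc, and the SNc was then parted from the ventral tegmental area (VTA) by a vertical cut. The 3 VTA Inputs of the same table, also from Cre+ mice of 10 to 14 months, shared the fit. Tested separately were 20 Input libraries of the SNr and SNc counted with unique molecular identifiers (UMI), 4 from Cre+ and 6 from Cre- mice per region. The 10 UMI Inputs of the VTA, 4 from Cre+ and 6 from Cre- mice, shared that second fit. The Cre- mice carried the RiboTag allele without DAT-IRES-Cre, and these UMI libraries, like the 10 striatal Inputs set beside them (4 Cre+ and 6 Cre-), came from mice of 10 to 14 months. Replicate numbers only name the libraries, and the labels did not say which libraries shared a mouse, so that p-values measured only the spread between these libraries.

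The SNr is an output nucleus of the basal ganglia. Its principal cells are GABA neurons that fire fast without input and hold thalamic and brainstem targets under tonic inhibition. They receive axons from the striatonigral class of spiny projection neurons of the striatum, and dendrites of SNc dopamine neurons descend among them. The SNc, a sheet of dopamine neuron cell bodies dorsal to the SNr, lies close to GABA neurons as well as to glutamatergic neurons of the thalamus, subthalamus and midbrain tegmentum. In a piece of tissue, fewer cells of a type and less RNA per cell cannot be told apart.

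Depth ranged from 6179362 to 15762443 counted reads in the SNc Inputs and from 4395752 to 13639463 in the SNr Inputs. Mitochondrial ribosomal RNA took 23.4 to 25.3% of the reads in the SNc Inputs and 26.2 to 26.9% in the SNr Inputs, without overlap. In the VTA Inputs it took 24.0 to 26.6%. No library duplicated another. The first principal component of the 500 most variable genes held 59.7% of the variance and placed the 3 SNr Inputs, from 33.1 to 35.3, away from the 6 SNc and VTA Inputs, from -26.9 to -12.1. Log2 levels correlated across genes at 0.966 to 0.981 within a region and at 0.939 to 0.947 between SNr and SNc libraries, values that are across genes, which are not independent replicates. None of the 5 sex-linked genes examined passed the test.

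Between SNr and SNc Inputs, 4443 of 15849 genes tested, or 28%, passed edgeR's quasi-likelihood test at a Benjamini-Hochberg adjusted p under 0.05. Levels are given in CPM, counts scaled to the counted total of the library, which compare libraries and not genes. Of the genes that passed, 2189 (13.8%) were higher and 2254 (14.2%) lower in the SNr. Among the higher genes 679 differed at least 2-fold and 220 at least 4-fold, and among the lower genes 531 and 162 did. The median log2 difference, always given as SNr minus SNc, was 0.01 over all genes tested, 0.68 over the higher and -0.56 over the lower genes. The 3 SNr values lay wholly above or below the 3 SNc values for 6107 genes (38.5%), so that separation of the 6 libraries was by itself a common event. Against the VTA Inputs, which used the same SNr libraries, 4478 genes (28.3%) passed, 2276 (14.4%) higher and 2202 (13.9%) lower in the SNr. When the 9 immunoprecipitated libraries of the table were added to the fit, 1197 of 17235 genes tested passed in SNr against SNc, 426 of them higher. Of the 162 genes examined one by one, 45 then lost their call while keeping their direction.

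**Figure D1:**
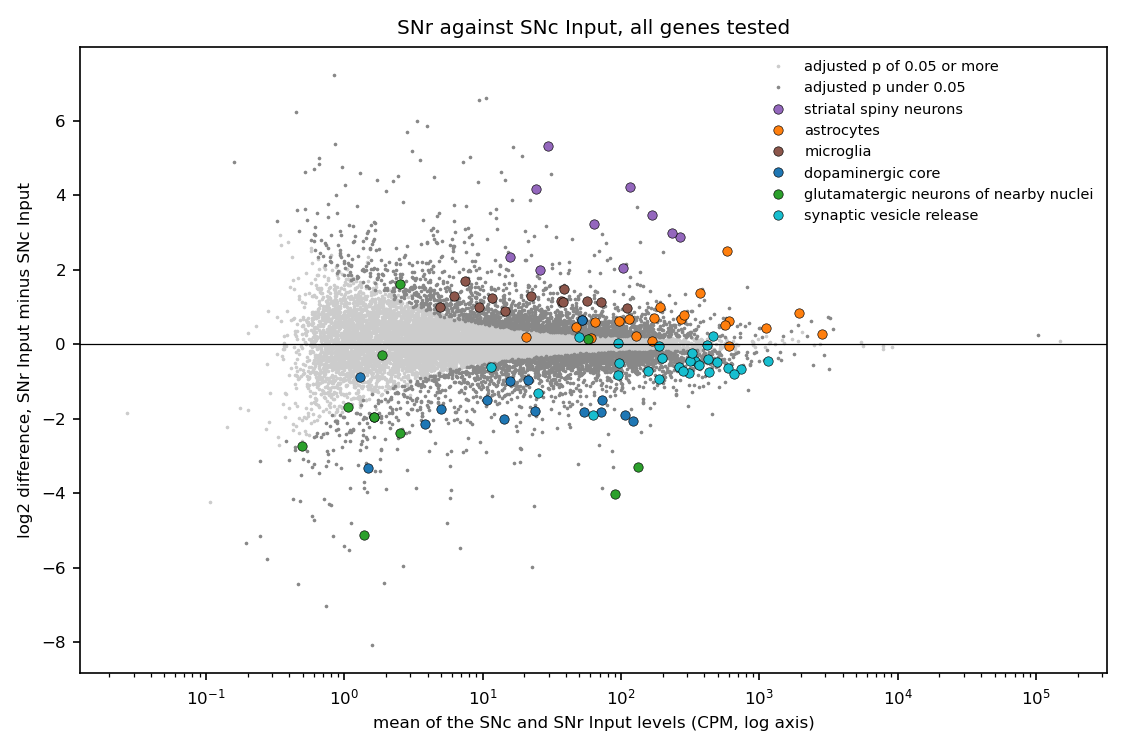
Log2 difference between SNr and SNc Inputs (vertical axis) against the mean level in CPM (log axis) for the 15849 genes tested, with grey points for single genes and coloured points for 6 gene lists. The 11 spiny neuron genes lie above 0 and 14 of the 16 dopaminergic genes lie below 0 and past the test.

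Of the 31 gene lists examined, the largest median difference was that of genes of the striatal spiny projection neuron, a GABA neuron with a striatonigral class, whose axons end in the SNr, and a striatopallidal class, whose axons end in the globus pallidus. All 11 genes listed passed higher, with a median log2 difference of 2.97, beside 13.8% of all genes and a median of 0.01. The lists were chosen with earlier results of these data known, so the rank of this list is a description only. *Penk*, the precursor of enkephalin peptides, lies on chromosome 4 from 4133531 to 4138819 (GRCm38, GENCODE vM21). It was at 48.3, 47.9 and 62.9 CPM in the SNc Inputs and at 397, 437 and 406 CPM in the SNr Inputs. The groups stood far apart, and the 3 VTA Inputs, at 51.0, 56.7 and 59.0 CPM, lay with the SNc. The log2 difference of *Penk* was 2.97 with an SE of 0.09 (edgeR adjusted p = 7.16e-21), a fold of 7.85.

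*Ppp1r1b*, which encodes the dopamine-regulated phosphatase inhibitor DARPP-32, was at 22.4, 25.9 and 37.3 CPM in the SNc and at 302, 334 and 286 CPM in the SNr. *Pde10a*, a phosphodiesterase gene of the striatum, was at 63.2, 61.8 and 70.2 CPM in the SNc and at 465, 535 and 405 CPM in the SNr. No SNr library came within reach of an SNc library for either gene, and the log2 differences were 3.46 with an SE of 0.12 for *Ppp1r1b* and 2.86 with an SE of 0.09 for *Pde10a*. *Adora2a*, the adenosine receptor of striatopallidal spiny neurons, was near the floor in the SNc at 0.952, 0.647 and 2.6 CPM and reached 54.7, 59.8 and 58.2 CPM in the SNr. *Drd1*, the D1 dopamine receptor of striatonigral spiny neurons, was at 2.16, 2.43 and 3.24 CPM in the SNc and at 48.0, 51.6 and 37.3 CPM in the SNr. Genes held to mark both classes of spiny neuron thus stood apart between the regions, by 5.33 on the log2 scale for *Adora2a* (6.05 without SNc replicate 3) and by 4.17 for *Drd1*.

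Other members of the list were the G protein regulator *Rgs9* (log2 difference 3.24), the small GTPase gene *Rasd2* (2.05), the peptide precursors *Pdyn* (2.35) and *Tac1* (1.98), and *Drd2* (0.64), the D2 receptor, which dopamine neurons share. Within the SNr, library 2 held the highest value of all 11 genes. The summed level of the list was 249 to 311 CPM in the SNc, 257 to 282 CPM in the VTA and 1754 to 2134 CPM in the SNr Inputs. In the immunoprecipitates of the same table the sums were 320 to 459 CPM for the SNc, 555 to 612 CPM for the VTA and 1030 to 1429 CPM for the SNr, of which *Drd2* made 121 to 250, 356 to 404 and 220 to 324 CPM. With the 18 libraries in 1 fit 10 of the 11 genes still passed, and *Drd2* (0.64) did not, at an edgeR adjusted p of 0.0659.

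Of the 10 genes with the smallest p among those called higher in the SNr and at or above the median level of 14.2 CPM, 4 were on the spiny neuron list, among them *Penk*, *Pde10a* and *Ppp1r1b*. A further 5 were *Gng7* (log2 difference 2.74), a G protein subunit of striatal neurons, *Arpp21* (2.46), a phosphoprotein related by regulation to DARPP-32, *Ddn* (3.68) and *Akap5* (2.72), which encode the postsynaptic proteins dendrin and AKAP5, and *Baiap2* (2.5), an actin regulator of dendritic spines. The remaining gene, *Gfap*, is glial and is described with the glia.

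**Figure D2:**
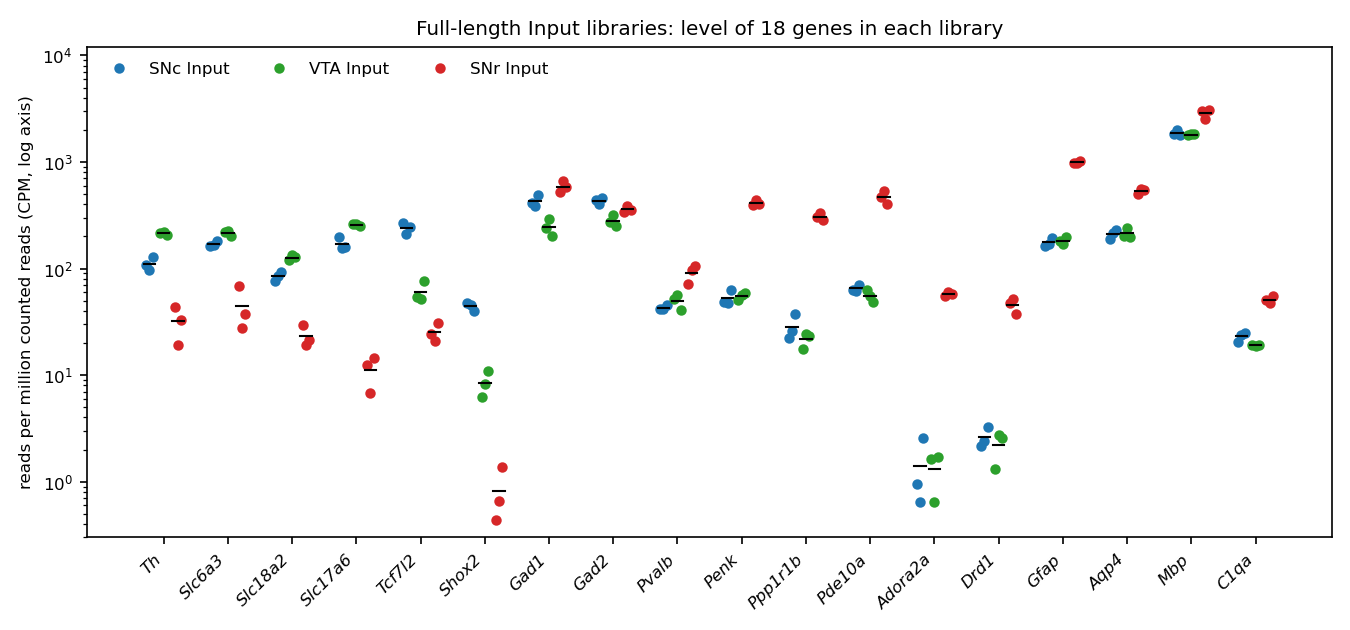
Level of 18 genes in each full-length Input library in CPM (vertical log axis), with 3 points and a black mean line for each of SNc (blue), VTA (green) and SNr (red). The SNr points lie above both other regions for *Penk*, *Ppp1r1b*, *Pde10a*, *Adora2a*, *Drd1* and *Gfap* and below them for *Th*, *Slc6a3*, *Slc18a2*, *Slc17a6*, *Tcf7l2* and *Shox2*.

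The striatum was compared in the UMI libraries, where 10 striatal Inputs gave a scale for the SNr values. The summed level of the 11 spiny genes was 5433 to 7332 CPM in the striatum, 1409 to 2282 CPM in the 4 Cre+ SNr Inputs and 232 to 403 CPM in the 10 SNc Inputs. In the 6 Cre- SNr Inputs the sums were 893, 2168, 488, 1385, 313 and 328 CPM, so that the last 2 lay within the SNc range. These sums rested on 32 to 240 UMIs per SNr library. In the VTA they were 238 to 312 CPM in the 4 Cre+ Inputs and 277 to 1941 CPM (median 831) in the 6 Cre- Inputs, the latter on 7 to 81 UMIs. The highest, 1941 CPM, was 7 UMIs in a library of 3606, and 3 of the 6 libraries held under 20000 UMIs. Sums above the SNc range thus occurred in the VTA of Cre- mice as well, in part on few UMIs. Taking all libraries of a region together, SNr levels of single genes were 8.13% (*Adora2a*) to 22.3% (*Ppp1r1b*) of the striatal level, leaving out *Drd2*, which had 4 UMIs in the striatum and none in the SNr. The lowest of these rested on 7 UMIs of *Adora2a* in the SNr, and the pooled levels cover SNr libraries with sums from 313 to 2282 CPM. *Gfap*, described with the glia, was at 0 to 43.3 CPM in the striatum. The part of spiny neuron RNA in the other differences between the regions was not tested.

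Among all genes tested in these UMI libraries, 448 of 2013 (22.3%) passed higher in the striatum than in the SNc. Of the 457 full-length genes that were higher in the SNr than in the SNc and were tested there, 195 (42.7%) were higher in the striatum than in the SNc, 85 (18.6%) were lower, and 162 (35.4%) were higher in the SNr than in the striatum. Over all 1980 genes tested in both tables these shares were 22.1%, 17.8% and 18.9%, so that the share lower in the striatum was near that of all genes. Of the 486 genes that were lower in the SNr, 41 (8.44%) were higher in the striatum than in the SNc and 169 (34.8%) were lower. Both contrasts took the SNc as their reference, so that a gene particularly low or high in the SNc falls on the same side in both. The shares higher or lower in the striatum than in the SNc therefore do not measure likeness of the SNr to the striatum. The comparison with the striatum was added after seeing the data.

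**Figure D3:**
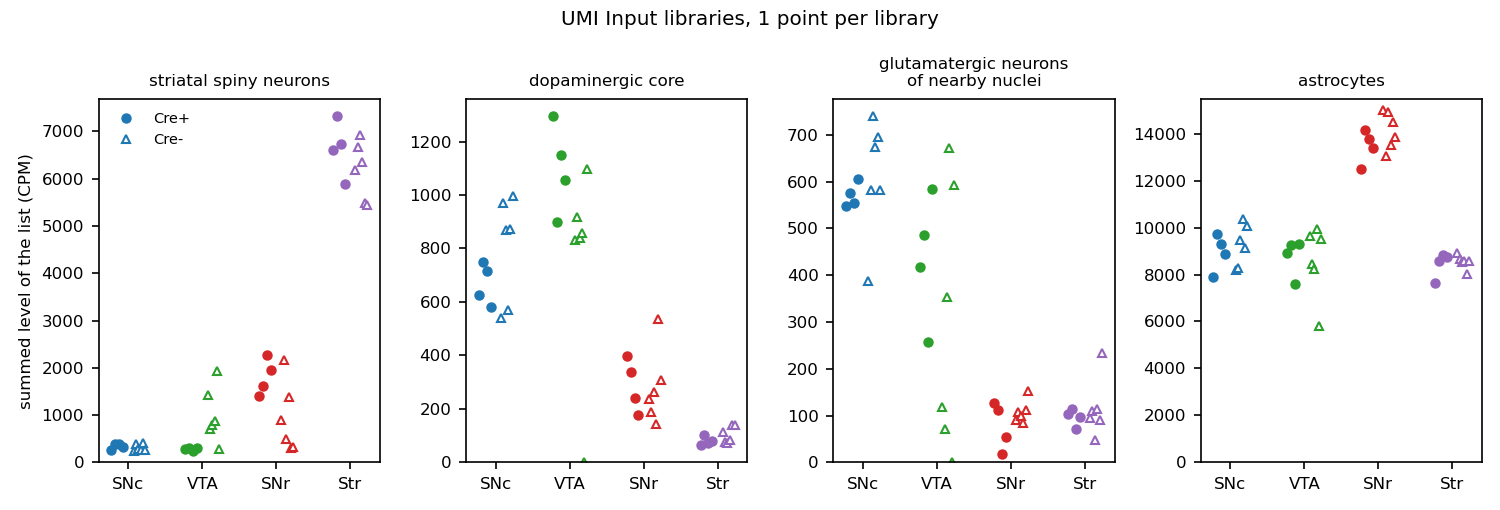
Summed level of 4 gene lists in CPM (vertical axis, from 0) in each UMI Input library of the SNc, VTA, SNr and striatum (Str), with filled circles for Cre+ and open triangles for Cre- mice. Spiny sums in the SNr range from 313 to 2282 CPM, below the striatum (5433 to 7332 CPM), and the lowest SNr libraries lie inside the SNc range (232 to 403 CPM). Astrocyte sums in the SNr (12482 to 15017 CPM) exceed those of every SNc and striatal library.

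Genes that define dopamine neurons were lower in the SNr Inputs but were present there. Of the 16 genes of the dopaminergic list 14 passed lower and 1, *Drd2*, passed higher, with a median log2 difference of -1.81. Among all genes 14.2% passed lower. *Th*, tyrosine hydroxylase, the rate-limiting enzyme of dopamine synthesis, was at 109, 97.3 and 128 CPM in the SNc and at 43.5, 19.1 and 33.2 CPM in the SNr. *Slc6a3*, the dopamine transporter, was at 163, 165 and 182 CPM in the SNc and at 68.7, 27.6 and 37.3 CPM in the SNr. The groups did not overlap for either gene, the highest SNr library exceeded the lowest by a wider ratio than in the SNc, and SNr replicate 1 was the highest SNr library for 12 of the 16 genes. The log2 differences were -1.82 with an SE of 0.15 for *Th* (edgeR adjusted p = 5.76e-11) and -1.90 with an SE of 0.16 for *Slc6a3* (adjusted p = 9.30e-11).

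The vesicular monoamine transporter *Slc18a2* was at 75.7, 85.4 and 92.2 CPM in the SNc and at 29.7, 19.4 and 21.4 CPM in the SNr, again without overlap. *Ddc*, the decarboxylase that forms dopamine, differed by -1.50, the receptor tyrosine kinase *Ret* by -2.07 and *Gch1*, which makes the cofactor of tyrosine hydroxylase, by -2.14 (-3.06 without SNr replicate 1 and -1.45 without SNr replicate 2). The nicotinic receptor subunits *Chrna6* and *Chrnb3* differed by -1.80 and -2.0, the latter by -2.68 without SNr replicate 1. Among the transcription factors that specify and maintain dopamine neurons, *Foxa2* differed by -3.33 (-2.51 without SNr replicate 2, -4.33 without SNr replicate 3), *Lmx1a* by -1.95, *Foxa1* by -1.74, *Lmx1b* by -1.50, *Nr4a2* by -1.0 and *En1* by -0.97. *Pitx3*, at 0.971 to 2.32 CPM in the SNc and 0.682 to 1.13 CPM in the SNr, did not pass, with a difference of -0.87 and an adjusted p of 0.217. The summed level of the list was 813 to 931 CPM in the SNc Inputs and 228 to 384 CPM in the SNr Inputs.

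Markers of the ventral tier of the SNc, whose dendrites descend into the SNr, did not all share this direction. *Aldh1a1*, an aldehyde dehydrogenase gene of ventral-tier neurons, was at 311, 318 and 349 CPM in the SNc and at 325, 307 and 341 CPM in the SNr. The groups overlapped, and the log2 difference was 0.00 with an SE of 0.07 and an adjusted p of 0.991. The transcription factor gene *Sox6* (0.24, adjusted p = 0.117), *Anxa1* (0.91, adjusted p = 0.0971) and *Aldh1a7* (-0.18, adjusted p = 0.742) did not pass either, and *Anxa1* did so only without SNr replicate 2 (1.16). The potassium channel gene *Kcnj6* (-2.01) and the secreted factors *Ndnf* (-1.54) and *Igf1* (-2.33, and -3.08 without SNr replicate 1) fell. Of the 9 tested markers of the VTA and the dorsal tier, 5 fell, among them the calcium buffer gene *Calb2* (-2.42) and the peptide precursors *Adcyap1* (-4.07, and -4.68 without SNr replicate 1) and *Cck* (-1.99), and 1 rose, the lipase gene *Lpl* (2.93). Of 8 transcripts listed because they are named for SNr immunoprecipitates of dopamine neurons, 1 rose and 1 fell. Over all genes the shares were 13.8% and 14.2%, so these counts were near them. The 8 include *Aldh1a1*, *Sox6*, *Anxa1* and *Aldh1a7*, already given with the ventral tier. The kinase gene *Prkca* was higher in the SNr Inputs (0.33), the scaffold gene *Homer2* was lower (-0.62), and the calcium pump gene *Atp2a3* (-0.59, adjusted p = 0.0691) and the lipid kinase gene *Dgkz* (-0.13, adjusted p = 0.307) did not pass. *Atp2a3* did pass without SNr replicate 1, at -0.77. With all 18 full-length libraries neither *Prkca* (0.34, edgeR adjusted p = 0.577) nor *Homer2* (-0.60, adjusted p = 0.123) passed.

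GABA neuron genes differed between the regions in both directions. Of 6 genes of GABA synthesis and transport 2 rose and 1 fell, with a median log2 difference of 0.08. Among all genes 13.8% rose and 14.2% fell. *Gad1*, which encodes 1 of the 2 GABA-synthesizing enzymes, was at 415, 388 and 486 CPM in the SNc and at 519, 661 and 576 CPM in the SNr. *Gad2*, which encodes the other, was at 437, 400 and 460 CPM in the SNc and at 342, 383 and 356 CPM in the SNr. Neither gene overlapped between regions, and they went opposite ways, *Gad1* by 0.46 with an SE of 0.09 (edgeR adjusted p = 0.000311) and *Gad2* by -0.25 with an SE of 0.07 (adjusted p = 0.00933). *Slc32a1*, the vesicular GABA transporter, was at 119 to 124 CPM in the SNc and 128 to 148 CPM in the SNr, a difference of 0.20 that did not pass (adjusted p = 0.0803). The GABA transaminase gene *Abat* rose by 0.21, and the GABA uptake transporter *Slc6a11* (-0.05) did not pass. Leaving out 1 library ended the call of *Gad2* (-0.22 without SNc replicate 3, -0.21 without SNr replicate 1) and of *Abat* (0.19 without SNc replicate 1, 0.11 without SNr replicate 2), and brought *Slc32a1* past the threshold (0.25 without SNr replicate 1). With all 18 full-length libraries none of the 6 genes passed in edgeR, and *Gad1* was at 0.47 (adjusted p = 0.306), *Gad2* at -0.24 (adjusted p = 0.494) and *Abat* at 0.21 (adjusted p = 0.286). Against the VTA, *Gad1* (1.29), *Gad2* (0.39) and *Slc32a1* (1.03) were all higher in the SNr, *Gad2* not with all 18 libraries (0.40).

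Of the 13 identity genes of SNr and midbrain GABA neurons 3 rose, 3 fell and 7 did not pass, with a median log2 difference of 0.01. The shares over all genes were 13.8% and 14.2%. *Pvalb*, the calcium buffer parvalbumin of fast-firing SNr neurons, was at 41.7, 42.1 and 45.3 CPM in the SNc and at 72.3, 97.4 and 106 CPM in the SNr, without overlap. It differed by 1.09 with an SE of 0.12 (edgeR adjusted p = 1.94e-08). The transcription factor genes *Foxp1* (1.81) and *Six3* (1.59), which striatal neurons express as well, also rose. *Kcnc1*, a potassium channel gene of fast-spiking neurons, fell by 0.64 on the log2 scale, and *Lhx1* (-1.29) and the nociceptin precursor *Pnoc* (-2.94, and -3.53 without SNr replicate 3) fell. The midbrain GABA lineage factors *Gata2*, *Gata3*, *Tal1*, *Sox14*, *Zfpm2* and *Nkx2-2* and the peptide gene *Sst* did not pass, with differences from -0.32 to 0.22, and *Gata3* passed only without SNc replicate 2, at -0.53.

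**Figure D4:**
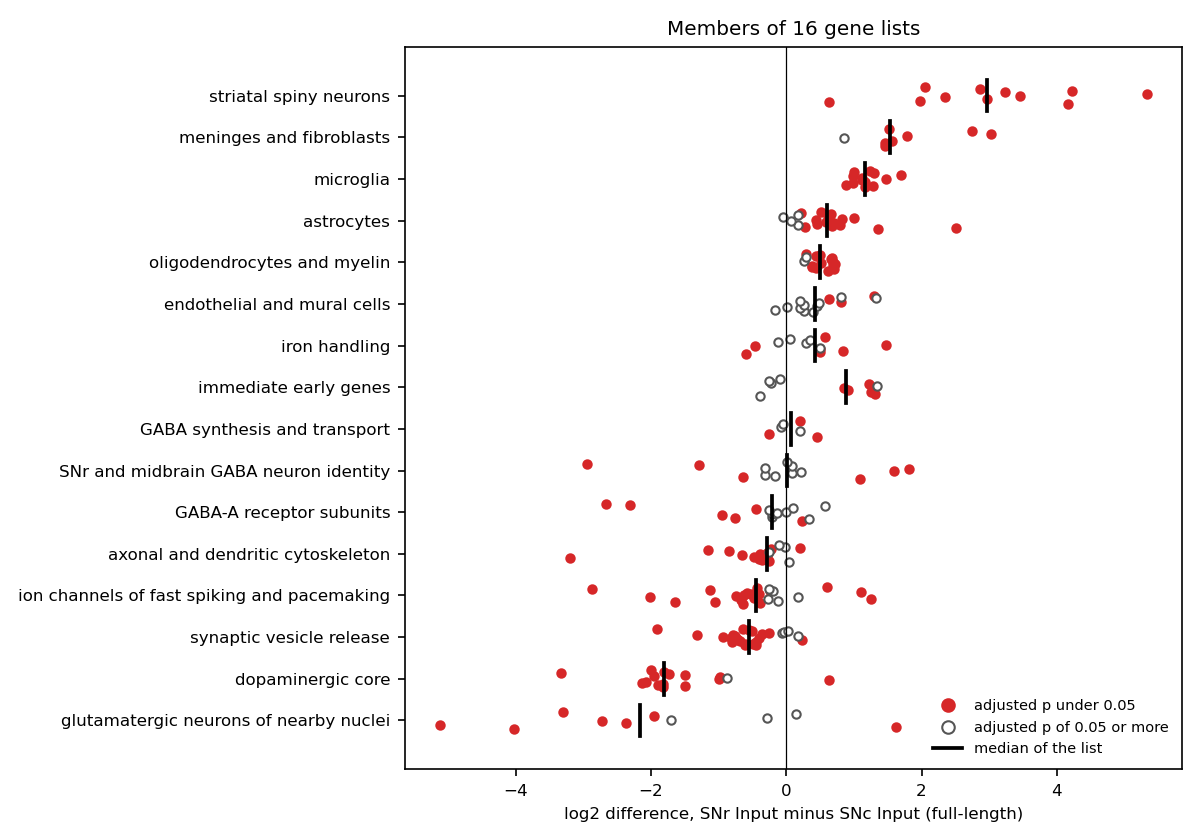
Log2 difference between SNr and SNc Inputs (horizontal axis) for the tested members of 16 gene lists, with filled points for members past the test, open points for the others and a black bar at the median of each list. The list medians range from 2.97 for spiny neurons to -2.16 for glutamatergic neurons of nearby nuclei.

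The list with the lowest median was that named for glutamatergic neurons of nearby nuclei, although single genes of other lists fell as far. Of 10 listed genes 6 fell and 1 rose, beside 14.2% of all genes that fell and a median of -2.16 for the list. *Lmx1a*, 1 of the 6, is also on the dopaminergic list and was counted there. *Slc17a6*, the vesicular glutamate transporter VGLUT2 of thalamic, subthalamic and midbrain neurons (chromosome 7, 51622006 to 51671119), was at 196, 156 and 160 CPM in the SNc and at 12.5, 6.75 and 14.6 CPM in the SNr. *Tcf7l2*, a transcription factor gene of the thalamus and nearby diencephalon, was at 269, 210 and 244 CPM in the SNc and at 24.4, 20.8 and 30.7 CPM in the SNr. Both were well apart between regions, with log2 differences of -4.02 and -3.29 and SEs of 0.14 and 0.13, folds of 16.3 and 9.81 in favour of the SNc. In the VTA Inputs *Slc17a6* was at 251 to 260 CPM and *Tcf7l2* at 52.3 to 76.0 CPM, so that the SNc was the highest of the 3 regions for *Tcf7l2* only. *Pou4f1*, a factor of habenular and midbrain neurons, was at 1.94 to 3.62 CPM in the SNc and at 0 to 0.0871 CPM in the SNr, and *Slc17a8*, the transporter VGLUT3, rose by 1.62.

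The 10 lower genes with the smallest p began with *Ntng1*, which encodes the axon guidance protein netrin-G1 of thalamic neurons, at 140, 149 and 118 CPM in the SNc and 10.0, 8.28 and 9.55 CPM in the SNr. *Shox2*, a homeobox gene of thalamic and midbrain neurons, went from 47.8, 45.6 and 40 CPM to 0.436, 0.660 and 1.36 CPM. These were differences of -3.86 and -5.98 on the log2 scale. The list went on with *Slc17a6* and *Tcf7l2*, the channel genes *Kcnk9* (-2.70) and *Cacna1g* (-2.87), the GABA-B receptor subunit *Gabbr2* (-1.67), the calcium sensor *Vsnl1* (-1.37), the phospholipase *Plcb4* (-1.71) and the imprinted gene *Peg3* (-1.24).

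Glial genes were higher in the SNr with few exceptions, where 13.8% of all genes tested were higher. All 13 microglial genes, 16 of 20 astrocyte genes, 14 of 16 myelin genes and 5 of 8 oligodendrocyte precursor genes rose and none of them fell, with median log2 differences of 1.17, 0.60, 0.51 and 0.34. With all 18 full-length libraries 5 microglial, 8 astrocyte, 6 myelin and 1 precursor genes rose, at medians of 1.17, 0.61, 0.51 and 0.33. *Gfap*, the intermediate filament of fibrous and reactive astrocytes, had the smallest p of all genes. It lies on chromosome 11 from 102887336 to 102900912 on the minus strand (GRCm38), and was at 164, 169 and 195 CPM in the SNc and at 972, 976 and 1029 CPM in the SNr. The regions were separated by 2.51 on the log2 scale with an SE of 0.07 (edgeR adjusted p = 4.26e-21), a fold of 5.69, and the VTA Inputs at 168 to 196 CPM lay with the SNc.

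Other astrocyte genes moved less. The water channel *Aqp4* was at 190, 214 and 228 CPM in the SNc and at 502, 561 and 543 CPM in the SNr, a difference of 1.36, angiotensinogen (*Agt*) differed by 1.01, apolipoprotein E (*Apoe*) by 0.83 and the glutamate transporter *Slc1a2* by 0.28. Among microglial genes the complement component *C1qc* differed by 1.47, the fractalkine receptor *Cx3cr1* by 1.17 and the growth factor receptor *Csf1r* by 0.98. *Cx3cr1* was at 40.1, 32 and 33.9 CPM in the SNc and at 76.5, 85.0 and 75.5 CPM in the SNr, without overlap.

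Myelin genes rose by a smaller and similar amount. *Mbp*, myelin basic protein, was at 1826, 1990 and 1804 CPM in the SNc and at 2993, 2519 and 3062 CPM in the SNr, and the groups did not overlap. The differences were 0.62 for *Mbp*, 0.69 for *Cnp* and 0.69 for *Ermn*, while *Opalin* (0.27, adjusted p = 0.267) and *Gjb1* (0.29, adjusted p = 0.176) did not pass, although *Gjb1* did without SNr replicate 2 (0.49). In the oligodendrocyte precursor list *Enpp6* (1.01), *Sox10* (0.58), *Cspg4* (0.49), *Pdgfra* (0.40) and *Olig1* (0.25) rose, and *Cspg4* (0.39) and *Olig1* (0.20) lost the call without SNc replicate 1, as *Olig1* did without SNc replicate 3 (0.23) or SNr replicate 3 (0.20).

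Genes of the brain's borders and vessels were uneven between the SNr libraries. Of 8 genes of meninges and fibroblasts 7 rose, with a median of 1.54, and all 8 were highest in SNr replicate 1. *Ptgds*, prostaglandin D synthase, which meninges and oligodendrocytes express, was at 394, 515 and 355 CPM in the SNc and at 2238, 580 and 777 CPM in the SNr. The SNr values lay above the SNc values, and the log2 difference was 1.52, or 0.70 without SNr replicate 1. Without that library *Slc6a13* changed from 3.03 to 2.19, *Col1a2* from 1.56 to 0.92 and *Dcn* from 1.46 to 0.91, and 6 of the 8 genes passed, with a median of 0.91. *Slc6a13* was at 3.62 without SNc replicate 1. Of 14 vascular genes 3 rose, *Vtn* (1.29), *Vwf* (0.81) and *Pdgfrb* (0.63), of which 1 was left without SNr replicate 1, where *Vwf* was 0.45 and *Pdgfrb* 0.39, while 7 of the 14 passed without SNr replicate 2. *Pdgfrb* was also lost without SNc replicate 3 (0.54). Of 4 tested genes of ependyma and choroid plexus 3 rose: *Ttr*, transthyretin, by 2.6, *Kl* by 1.42 and *Rarres2* by 1.24. *Ttr* did not pass by DESeq2 (2.63, DESeq2 adjusted p = 0.0583), and none of these 3 passed in edgeR with all 18 full-length libraries. SNr replicate 3 held 54.8 CPM of *Ttr* beside 16.7 and 3.01 CPM in the other two, and the call was lost without it (1.34), *Kl* was lost without SNr replicate 1 (1.08) and *Rarres2* without any of SNc replicates 1 (1.36) and 3 (0.95) and SNr replicates 1 (1.15) and 3 (1.14). Of 5 red blood cell genes 1, *Hbb-bs* (1.14), rose, though not with all 18 full-length libraries (1.18, edgeR adjusted p = 0.481). Beside the full-length counts of these lists, 13.8% of all genes rose. In the UMI libraries all 4 tested red blood cell genes rose over all mice (median 1.01) and in Cre- mice (median 1.12). Among all genes there, 281 of 1589 and 210 of 1903 rose.

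Genes that neurons share were lower in the SNr for the most part, where 14.2% of all genes fell and 13.8% rose. Of 27 genes of synaptic vesicle release 22 fell and 1 rose, with a median log2 difference of -0.55. *Syt1*, the calcium sensor of release, was at 855, 840 and 832 CPM in the SNc and at 499, 483 and 453 CPM in the SNr. The regions did not overlap and differed by -0.80 with an SE of 0.06 (edgeR adjusted p = 3.61e-12). *Syp* fell by 0.75, *Sv2c* by 0.94 and *Cadps2*, a factor of dense-core vesicle release, by 1.90 on the log2 scale, and *Cplx2* rose by 0.23, a call lost without SNc replicate 2 (0.17) or SNr replicate 2 (0.17).

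Of 24 ion channel genes of fast spiking and pacemaking 16 fell and 3 rose, with a median of -0.45. The shares of all genes that did were 14.2% and 13.8%. The falls included the fast-spiking potassium channel *Kcnc4* (-1.65) and the T-type calcium channel *Cacna1g*, at 152, 165 and 132 CPM in the SNc and 22.7, 15.2 and 25.3 CPM in the SNr. The sodium channel subunit *Scn4b*, in contrast, was at 151, 157 and 164 CPM in the SNc and at 330, 381 and 293 CPM in the SNr. *Scn4b* (1.11) and the potassium channel subunit *Kcnab1* (1.25) were among the 3 that rose. Of 17 cytoskeletal genes 12 fell, with a median of -0.29, among them the growth-associated *Gap43* (-1.16), *Stmn2* (-0.85), the microtubule-associated *Map1b* (-0.66) and the neuronal tubulin *Tubb3* (-0.48). The spectrin gene *Sptbn1* rose by 0.20, and this call was lost without SNc replicate 1 (0.20) or 3 (0.09), VTA replicate 1 (0.20) or 3 (0.19), or SNr replicate 1 (0.16) or 2 (0.18). It was also lost by DESeq2 (0.19), over the 6 SNr and SNc libraries alone (0.19) and with all 18 full-length libraries (0.20).

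Of 14 tested GABA-A receptor subunits 5 fell and 1 rose, the falls including *Gabrq* (-2.67), *Gabra3* (-0.75) and *Gabra5* (-0.96). Of 8 largely nuclear or imprinted noncoding RNAs 6 fell, with *Meg3* at 782, 643 and 739 CPM in the SNc and 202, 220 and 151 CPM in the SNr. The differences were -1.89 for *Meg3*, -1.93 for *Miat*, -0.97 for *Snhg11* and -0.58 for *Rian*. None of the 11 tested mitochondrially encoded genes passed, and of 76 cytosolic ribosomal protein genes 19 rose and 1 fell, with a median of 0.28. Beside these lists, 13.8% of all genes rose and 14.2% fell.

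Smaller lists held single members of interest to nigral biology, where 13.8% of all genes rose and 14.2% fell. Of 14 genes linked to Parkinson disease 6 fell and 1 rose: *Dnajc6* (-0.75), *Atp13a2* (-0.66) and *Uchl1* (-0.52) were among the falls, and *Lrrk2*, at 26.6, 24.3 and 27.8 CPM in the SNc and 60.2, 67.5 and 50.7 CPM in the SNr, rose by 1.21. Of 12 iron genes 5 rose, led by ferritin heavy chain (*Fth1*, 0.50), transferrin (*Trf*, 0.50), ceruloplasmin (*Cp*, 1.47, and 0.89 without SNr replicate 1) and ferritin light chain (*Ftl1*, 0.84), while the transferrin receptor *Tfrc* (-0.59) and the iron importer *Slc11a2* (-0.46) fell. The *Slc11a2* call was lost without SNc replicate 1 (-0.24) and without any SNr library (-0.49 to -0.44). It was also lost by DESeq2 (-0.46) and with all 18 full-length libraries (-0.45). Of 12 matrix genes 4 rose and 2 fell, among them *Lgi2* (0.59), *Vcan* (0.79), *Hapln4* (-0.69) and *Spock1* (-0.76).

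Of 10 immediate early genes 5 rose, with *Egr1* at 29.4, 32 and 26.8 CPM in the SNc and 72.1, 71.3 and 62.1 CPM in the SNr, and with differences of 1.25 for *Egr1*, 1.23 for *Nr4a1*, 0.91 for *Junb* and 0.85 for *Arc*. Of 6 tested genes of dopamine reception and catabolism 4 rose, *Drd1*, *Drd2*, *Aldh2* (0.41) and *Maob* (0.48), the last not without SNc replicate 1 (0.44) or SNr replicate 2 (0.42). Of 19 tested neuropeptide genes 7 fell and 4 rose, the latter being *Penk*, *Tac1*, *Pdyn* and *Npy* (2.74). Of 9 tested genes of cortical and hippocampal glutamatergic neurons 4 rose and 1 fell, beside 13.8% of all genes that rose and 14.2% that fell. *Nrgn*, neurogranin, which spiny neurons also express, differed by 1.94, *Camk2a* by 0.54, and *Cux2* by -0.96, and *Slc17a7*, the vesicular transporter VGLUT1 of cortical neurons, was at 14.6 to 44.7 CPM in the SNc and at 12.1 to 25.7 CPM in the SNr. Of 6 tested cholinergic and serotonergic genes 3 rose, the choline transporter *Slc5a7* (2.77), the acetylcholine-synthesizing enzyme *Chat* (2.13) and the vesicular transporter *Slc18a3*, which was at 0 to 0.185 CPM in the SNc and 1.14 to 2.71 CPM in the SNr. With all 18 full-length libraries none of the 6 passed in edgeR, *Slc5a7* at an adjusted p of 0.0607 and *Chat* at 0.0764. In that fit 17 of the 27 synaptic vesicle genes, 11 of the 24 ion channel genes, 7 of the 17 cytoskeletal genes, 5 of the 14 Parkinson disease genes and 4 of the 8 noncoding RNAs fell, and 4 meningeal, 2 iron and 1 of the immediate early genes rose.

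In the UMI libraries, whose depth was 26583 to 134286 UMIs in the SNr and 30953 to 380689 in the SNc, 566 of 1589 genes tested (35.6%) passed between the regions, 281 (17.7%) higher and 285 (17.9%) lower in the SNr. Of 1560 genes tested in both tables, 730 passed in the full-length and 554 in the UMI table, and 383 passed in both with the same direction, 52.5% of the former and 69.1% of the latter. The 2 genes that passed in opposite directions were *Akap9* (0.27 in full-length, -0.57 in UMI) and *Rps15a* (-0.43 and 0.43), whose full-length call was lost without SNc replicate 3 (-0.32) and whose UMI call was lost by library totals alone (0.30), at a minimum of 10 UMIs (0.45) and in Cre+ libraries alone (0.29). The *Akap9* UMI call was lost in 11 of 20 fits without 1 library. Whether the Cre+ UMI libraries came from the same lysates as the full-length ones was not given in the sources used here.

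The Cre- libraries cannot have come from the Cre+ mice of the full-length table, and there 401 of 1903 genes tested (21.1%) passed between SNr and SNc. Of the 391 of these that were tested in both tables, 284 (72.6%) passed in the full-length table with the same direction and 4 with the opposite direction. *Gfap* over the 10 UMI libraries of a region had a lowest value of 19.6, a median of 60.3 and a highest value of 129 CPM in the SNc, and 199, 296 and 525.5 CPM in the SNr, without overlap. Its log2 difference was 2.24 over all mice and 2.19 in Cre- mice. *Tcf7l2* was at 232 to 482 CPM in the SNc and 0 to 72.3 CPM in the SNr (-3.46 and -3.42), and *Slc17a6* at 96.9 to 223 CPM and 0 to 81.9 CPM (-2.73 and -2.51), neither with overlap. Without SNr Cre- replicate 6 *Slc17a6* was at -3.33 over all mice and -3.19 in Cre- mice.

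*Penk* (2.38 and 2.32) and *Ppp1r1b* (2.39 and 1.93) rose in both fits, but single libraries overlapped: *Ppp1r1b* was at 19.6 to 194 CPM in the SNc and 81.9 to 798 CPM in the SNr. *Th* was at 77.4 to 202 CPM in the SNc and 8.34 to 108 CPM in the SNr, with overlap, and fell by 1.15 on the log2 scale over all mice and by 1.1 in Cre- mice, where the call was lost without SNr Cre- replicate 4 (-0.82). *Pvalb* (0.90), *Apoe* (1.01), *Mbp* (0.60), *C1qa* (1.51) and *Ptgds* (1.41) rose and *Meg3* (-1.92), *Ntng1* (-3.66, and -4.47 without SNr Cre- replicate 6) and *Syt1* (-1.04) fell over all mice. *Gad1* (0.49, edgeR adjusted p = 0.0589) and *Gad2* (-0.44, adjusted p = 0.0583) missed the threshold, each with the sign it had in the full-length table. Both lay near it: *Gad2* passed by DESeq2 (-0.51), by library totals alone (-0.56) and over the 20 SNr and SNc libraries alone (-0.47), without any 1 of SNc Cre+ replicates 2 (-0.47) and 3 (-0.48), SNr Cre+ replicate 4 (-0.49), SNc Cre- replicate 5 (-0.47) and SNr Cre- replicate 2 (-0.48). *Gad1* passed without any 1 of SNc Cre+ replicate 3 (0.54), SNr Cre+ replicate 1 (0.55), SNc Cre- replicates 1 (0.53), 4 (0.58) and 5 (0.56) and SNr Cre- replicate 6 (0.56). A test of whether the region difference itself differed between genotypes called 0 of 2030 genes in edgeR, where 125 had an unadjusted p under 0.05, and 0 in DESeq2, where 75 did.

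**Figure D5:**
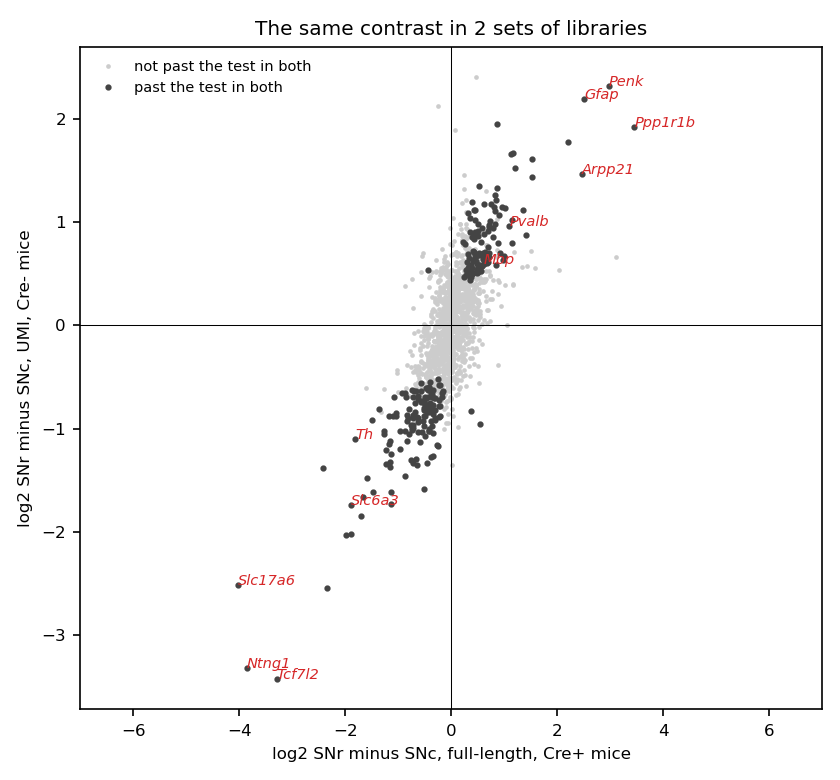
Log2 difference between SNr and SNc Inputs in the full-length libraries of Cre+ mice (horizontal axis) against that in the UMI libraries of Cre- mice (vertical axis). Points are genes tested in both that were also tested in the UMI fit over all mice, and dark points are genes past the test in both. Most dark points lie in the upper right and lower left quadrants.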

How the data were processed

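Reads of the full-length libraries were processed by the authors, who trimmed the first bases of read 2, removed ribosomal RNA reads with Bowtie2, used STAR 2.6.7a with GRCm38.p6 for alignment, and took uniquely mapped exonic reads through featureCounts 1.6 (names and versions from the submitters' processing notes). The deposited values were raw counts per gene in both tables, with UMIs collapsed in the UMI table and PCR copies not collapsed in the full-length table. The strand setting of the counting was not given in the sources used here, so that overlapping and antisense genes cannot be told apart. Of 55487 full-length genes, 15849 passed edgeR's filterByExpr and 15836 of these matched GENCODE vM21 by ID, which gave coordinates. In the UMI table, 5 rows name no gene (0.000679% of counts), which were left out. Columns of other samples (336) were not used, and no comparison values of the authors were used.

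Counts were tested in R 4.3.3 with edgeR 4.0.16 (TMM, quasi-likelihood, Benjamini-Hochberg over all genes tested, threshold 0.05), using limma 3.58.1, and with DESeq2 1.42.0 as an alternative. The full-length fit held 9 Inputs and the UMI fit 30 midbrain Inputs with a genotype term. SE is that of the log2 difference. Principal components used a prior count of 2. The code was tested on simulated data. The members and the 31 gene lists were chosen with earlier results of these data known. Named were genes the study names for these regions, in each direction the 10 genes past the test that had the lowest p, if at or above the median mean CPM, the members of 3 neuronal lists (dopaminergic, GABA synthesis, GABA identity), up to 4 members of each other list by p, and genes called oppositely in both tables. Further list members were named after their values were seen, among them *Drd1*, *Adora2a*, *Rgs9*, *Rasd2*, *Pdyn*, *Tac1*, *Pou4f1*, *Slc17a7* and *Slc1a2*. Some genes that the rule names are not reported here.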

Additional observations from a re-analysis of the deposited data

Results flagged for a closer look

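The total of 1 UMI library stood apart from its group. SNc Cre- replicate 6 held 380689 UMIs, beside 30953 to 151145 in the other 5 libraries, and its gap took 0.656 of the range, above Dixon's critical value of 0.625 for 6 samples. This was 1 of 36 groups examined, and chance flags about 1 in 20 groups. Without that library 277 of 1984 genes tested passed between SNr and SNc in Cre- mice, beside 401 of 1903 with it.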

How the results depend on the processing

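No paired analysis was possible because the labels give no replicate number that regions share. The full-length count of 4443 genes was 3594 to 4422 without 1 library (1678 to 2178 higher, 1916 to 2267 lower), and the count against the VTA 3632 to 4506 (1826 to 2300 higher, 1806 to 2206 lower). With all 18 full-length libraries, where 17235 genes were tested, 1197 passed against the SNc (426 higher, 771 lower) and 1339 against the VTA (578 higher, 761 lower). The share of higher calls was 49.3% over 9 and 35.6% over 18 libraries.

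In the UMI table, counts without 1 library were 499 to 616 (247 to 296 higher, 247 to 320 lower), and in Cre- mice 277, without SNc Cre- replicate 6, to 556, without SNr Cre- replicate 6 (144 to 303 higher, 133 to 253 lower). Library totals alone gave 164 higher genes over all mice, and 119 higher and 301 lower in Cre- mice. There DESeq2 gave 119 higher, and a minimum of 10 UMIs gave 120 lower of 11845 genes tested. The share of higher calls over all mice was 49.6%, 38.2% by DESeq2 and 29.9% by totals alone. Cre+ libraries alone gave 215 of 1467 genes tested (114 higher, 101 lower). The test of genotype by region called 4 genes at a minimum of 10 UMIs (1 higher, 3 lower) and 0 to 3 without 1 library, all lower: 1 without SNr Cre+ replicate 3 and 3 without SNr Cre- replicate 6. Without the 3 VTA libraries under 20000 UMIs, 646 of 1912 genes tested passed over all mice, beside 566 of 1589 with them. That fit and the fits without 1 library in Cre- mice and for genotype by region were added after seeing the data. The causes were not tested.

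Genes near 0 changed sign without passing. *Aldh1a1* was at -0.0036 by DESeq2, -0.0032 with DESeq2 size factors, -0.011 by totals alone, -0.0033 with no filter, -0.0035 with a CPM minimum, -0.0048 over 6 libraries and -0.043 to 0.039 without 1 library. *Sst* was at -0.0026 by totals alone and -0.14 to 0.13 without 1 library, *Tal1* at -0.060 to 0.32 and *Sox14* at -0.53 to 0.65. Depth limits genes with few reads, for which no fold is given.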

Other observations

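Genes outside the lists, chosen after their values were seen and therefore given without a test, set the SNr apart in both directions. *Bcl11b*, a factor of striatal and cortical neurons, was at 13.1, 18.6 and 19.7 CPM in the SNc and at 119, 144 and 121 CPM in the SNr. *Myoc*, which encodes myocilin, was at 11.2, 11.2 and 10.8 CPM in the SNc and at 78.8, 75.1 and 78.9 CPM in the SNr. The groups did not overlap for either gene.

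*Prkcd*, a kinase gene of thalamic neurons, was at 180, 204 and 91.3 CPM in the SNc, at 14.7, 9.53 and 29.1 CPM in the VTA and at 20.0, 12.8 and 14.8 CPM in the SNr. *Lhx9*, a homeobox gene of the thalamus and midbrain, was at 14.5, 9.39 and 15.7 CPM in the SNc and at 0.348, 0 and 0.910 CPM in the SNr. *Slc6a5*, the neuronal glycine transporter, was at 40.7 CPM in SNr replicate 3 alone, beside 0.871 and 1.47 CPM in the other two SNr libraries.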
